A study of Mus musculus with 3 samples.

Results

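The Ifitm genes encode the interferon-induced transmembrane proteins, and 4 of them, Ifitm1, Ifitm2, Ifitm3 and Ifitm10, were described here across thymic invariant natural killer T (iNKT) cells. They were matched by symbol and are 4 of the 30406 gene identifiers that all 3 libraries shared. They were chosen with their own levels and ratios in these libraries known, so every level below is a description and carries no test. The cells were thymocytes that bound a lipid-loaded CD1d tetramer, which marks the invariant receptor of iNKT cells, and were sorted as TCRβ+ CD1d-tetramer+ CD24- NK1.1- after CD8+ cells had been depleted with beads. The WT library came from C57BL/6 mice that had no bone marrow transplantation (BMT) and were 7 weeks old. The BM only library, labelled Non-GVHD, came from F1 (C57BL/6 x BALB/c) mice that had been irradiated at a lethal dose and given C57BL/6 marrow depleted of T cells. The BM + Spl library, labelled GVHD, came from recipients of the same strain and marrow that also received C57BL/6 splenic cells, which cause graft-versus-host disease (GvHD). Both groups of recipients were 16 weeks old, 9 weeks after BMT. The transferred splenic cells included mature lymphocytes, and a cell that grew from the marrow cannot be told apart from one that came with the spleen in these counts, because both were C57BL/6.

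IFITM proteins sit in the plasma membrane and in the membranes of endosomes and hinder the fusion of enveloped viruses with the cell. Type I interferon signals from its receptor, IFNAR, to genes that carry interferon-stimulated response elements, whereas interferon gamma signals from a separate receptor to genes that carry gamma-activated sites. Ifitm1, Ifitm2 and Ifitm3 are known interferon-induced genes and are also expressed by resting cells of several kinds, while Ifitm10 is a more distant member that is little studied in lymphocytes. In iNKT cells the NKT1 subset expresses T-bet and the receptors and effector genes of natural killer cells, NKT2 cells express high PLZF and interleukin 4, and NKT17 cells express RORγt.

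All 4 genes are on mouse chromosome 7 (GRCm38, the mm10 build that the labels name; GENCODE annotation). Ifitm2 (ENSMUSG00000060591, 140954837 to 140955987, minus strand), Ifitm1 (ENSMUSG00000025491, 140967221 to 140969825, plus strand) and Ifitm3 (ENSMUSG00000025492, 141009586 to 141010770, minus strand) lie together within 55934 bases. Ifitm10 (ENSMUSG00000045777, 142325837 to 142373753, minus strand) begins 1315067 bases beyond Ifitm3. The transcripts of Ifitm1, Ifitm2 and Ifitm3 shared 11 to 40 stretches of 30 bases pair by pair and none of 90 bases, and Ifitm10 shared none of 30 bases with any of them. Reads within the short shared stretches could be split between the 3 clustered genes. Ifitm2 overlaps Gm45717 and Ifitm10 overlaps Gm49369 on the same strand, and reads in those overlaps were not separable here.

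Promoter windows of the 4 genes are shown because these windows differ in the letters that interferon-activated factors bind. Each is the RefSeq sequence (GRCm38.p6) from 250 bases before the annotated transcription start to 30 bases after its beginning, on the strand of the gene and 5′ to 3′. Capitals mark every match on either strand to GAAA, any 2 bases and GAAA again, the letters of an interferon-stimulated response element.
Ifitm3, chr7:141010715-141010994, minus strand: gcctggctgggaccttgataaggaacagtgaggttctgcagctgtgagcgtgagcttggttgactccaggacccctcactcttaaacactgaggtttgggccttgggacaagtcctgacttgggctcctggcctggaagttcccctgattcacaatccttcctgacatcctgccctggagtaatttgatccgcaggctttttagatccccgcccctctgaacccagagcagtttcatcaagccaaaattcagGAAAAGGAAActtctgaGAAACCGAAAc
Ifitm2, chr7:140955932-140956211, minus strand: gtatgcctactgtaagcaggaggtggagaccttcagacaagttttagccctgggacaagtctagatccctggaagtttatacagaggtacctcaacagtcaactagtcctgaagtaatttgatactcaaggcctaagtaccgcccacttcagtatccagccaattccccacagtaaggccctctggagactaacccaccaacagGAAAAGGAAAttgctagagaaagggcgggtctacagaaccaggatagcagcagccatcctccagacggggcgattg
Ifitm1, chr7:140967826-140968105, plus strand: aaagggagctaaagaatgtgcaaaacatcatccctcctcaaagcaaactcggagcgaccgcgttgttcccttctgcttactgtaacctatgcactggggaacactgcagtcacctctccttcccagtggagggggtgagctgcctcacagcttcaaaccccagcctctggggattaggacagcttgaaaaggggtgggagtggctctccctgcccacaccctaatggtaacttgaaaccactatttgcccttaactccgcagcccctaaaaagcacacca
Ifitm10, chr7:142372230-142372509, minus strand: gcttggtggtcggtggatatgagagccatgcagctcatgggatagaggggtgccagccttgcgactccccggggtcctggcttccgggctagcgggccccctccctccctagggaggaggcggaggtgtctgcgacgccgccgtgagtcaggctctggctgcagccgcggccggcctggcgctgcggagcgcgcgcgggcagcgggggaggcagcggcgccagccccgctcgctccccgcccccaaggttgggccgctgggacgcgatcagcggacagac
Counting the first transcribed base as 1, the Ifitm3 window held 2 matches, which began at positions 3 and 20. The Ifitm2 window held 1 match, which began at position -46. No match was present in the Ifitm1 window or in the 3 annotated Ifitm10 windows, of which 1 is printed, and this says only that these letters are not in these windows. The Ifitm1 window follows a RefSeq start and begins at 140967826, inside the GENCODE span of the gene given above, which starts at 140967221. The bases before that gene start were not searched. Among all 32851 RefSeq windows of this length, 1077 (3.28%) held a match. Of 31 interferon-induced genes with a window, other than the members, 20 (64.5%) held it. The letters TTCNNNGAA of a gamma-activated site were present in 7.83% of all windows and, among the members, in that of Ifitm3, where the match began at position 14 and overlapped the second of its capitals.

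Each condition was represented by 1 library of pooled mice, so no test between conditions could be made, and intervals below are exact 95% intervals that cover counting error only. After removal of cells with 200 genes or fewer, 6000 genes or more, or 10% or more of their UMIs (unique molecular identifiers, 1 per captured transcript) from mitochondrial genes, 4434 WT, 5970 BM only and 5557 BM + Spl cells remained. The median cell held 12073.5, 4721 and 6463 UMIs. Levels are given as CPM, the UMIs of a gene per 1000000 UMIs of all shared genes, summed over the cells of a library or subset. The WT library was processed with another version of the counting software and differed from both BMT libraries in its mitochondrial share (median 6.48% against 0.687% and 0.511%) and in the share of cells with a callable T cell receptor V beta segment (854 of 4434 cells against 4616 of 5970 and 4259 of 5557). The labels name both a 3′ and a 5′ kit without assigning them, so WT values are set beside the others and enter no ratio between libraries. Among cells with a V beta call, the 6 V beta segments that iNKT cells use made up 91.1% in WT, 79.4% in BM only and 60.7% in BM + Spl. Cells that passed a gate for B, plasmacytoid dendritic (pDC) or macrophage and conventional dendritic (cDC) cells made up 0.429%, 6.03% and 10% of the libraries. BM only and BM + Spl shared 43 cell barcodes, and their removal changed no direction.

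Over all cells, Ifitm1 was higher in BM + Spl, Ifitm10 was lower in BM + Spl, and Ifitm2 and Ifitm3 were 1.11-fold and 1.12-fold lower in BM + Spl. Ifitm1 was counted at 1.09 CPM in WT, 19.7 in BM only and 80.9 in BM + Spl, a ratio of BM + Spl over BM only of 4.10-fold (log2 2.04, interval 1.92 to 2.16). Ifitm10 was counted at 16.4 CPM in WT, 82.6 in BM only and 10.1 in BM + Spl, which was 8.17-fold lower in BM + Spl than in BM only (log2 -3.03, interval -3.18 to -2.89). Its level in BM + Spl was the lowest of the 3 libraries, whereas that of Ifitm1 was the highest. Ifitm2 stood at 8.88, 142 and 128 CPM (log2 ratio -0.15, interval -0.21 to -0.10), and Ifitm3 at 7.89, 119.5 and 106 CPM (log2 ratio -0.17, interval -0.23 to -0.11). Beside these, 5.98% of 11714 genes with at least 100 UMIs in the BMT libraries were past 1.5-fold higher in BM + Spl and 6.58% were past 1.5-fold lower. Of the 4 members, 1 was past 1.5-fold in each direction, and since the members were picked on these ratios, nothing follows from that count.

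The same direction appeared in the share of cells with at least 1 UMI for Ifitm10 and Ifitm1. Ifitm10 was detected in 15.9% of WT cells, 28.1% of BM only cells (interval 27.0 to 29.3) and 5.31% of BM + Spl cells (4.73 to 5.93). Ifitm1 was detected in 0.541%, 2.90% (2.49 to 3.36) and 4.48% (3.95 to 5.06). Ifitm1 therefore differed 4.10-fold in UMIs between the BMT libraries but far less in the number of positive cells. Ifitm2 was detected in 3.61%, 20.05% and 20.3% of cells and Ifitm3 in 4.49%, 17.9% and 16.9%. Thinned to 2000 UMIs per cell, which left out 12, 543 and 260 shallower cells, Ifitm10 was detected in 5.45%, 17.2% and 2.30% of cells and Ifitm1 in 0.249%, 1.94% and 3.63%, the same orders. The macrophage gene Lyz2 and the B cell gene Cd79a, which T cells do not express, were found in at most 0.0713% and 0.32% of T lineage cells. Both are gate genes, and a cell that carried either with another gene of its gate was left out of the T lineage. These shares can therefore understate free RNA from lysed cells of those types. Cd74, the invariant chain of MHC class II and an abundant transcript of antigen-presenting cells, was found in 6.82%, 19.5% and 40.1% of T lineage cells in WT, BM only and BM + Spl. Whether part of the Ifitm2 and Ifitm3 counts in T lineage cells came from antigen-presenting cells was not tested.

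Cells were next split into 11 subsets by marker genes, none of which is an Ifitm gene. NKT1-like cells carried at least 3 of 12 NKT1 genes (such as Tbx21, Il2rb, Cxcr3 and Xcl1) and more of them than NKT2 genes, and NKT2-like cells carried at least 2 of 9 NKT2 genes (such as Zbtb16, Il4 and Icos). NKT1-like cells made up 23.3% of WT, 42.9% of BM only and 10.9% of BM + Spl cells. All 4 members were more abundant in NKT1-like than in NKT2-like cells in every library. The excess was 34.1-fold for Ifitm1, 25.3-fold for Ifitm2, 22.9-fold for Ifitm3 and 28-fold for Ifitm10 in BM only. In BM + Spl it was 58.4-fold, 26.1-fold, 15.7-fold and 8.47-fold in the same order, and in WT 23.2-fold for Ifitm2, 16.6-fold for Ifitm3 and 9.37-fold for Ifitm10. Ifitm1 of WT was represented by 3 UMIs in NKT2-like cells and 58 in NKT1-like cells, 36 of them in 1 cell. The NKT1-like enrichment thus held for all 4 genes, and in BM only these cells carried 70.6%, 69.3%, 63.1% and 86.6% of all UMIs of Ifitm1, Ifitm2, Ifitm3 and Ifitm10. In BM + Spl, where NKT1-like cells were fewer, they carried 51%, 42.2%, 29% and 39%.

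**Figure D1:**
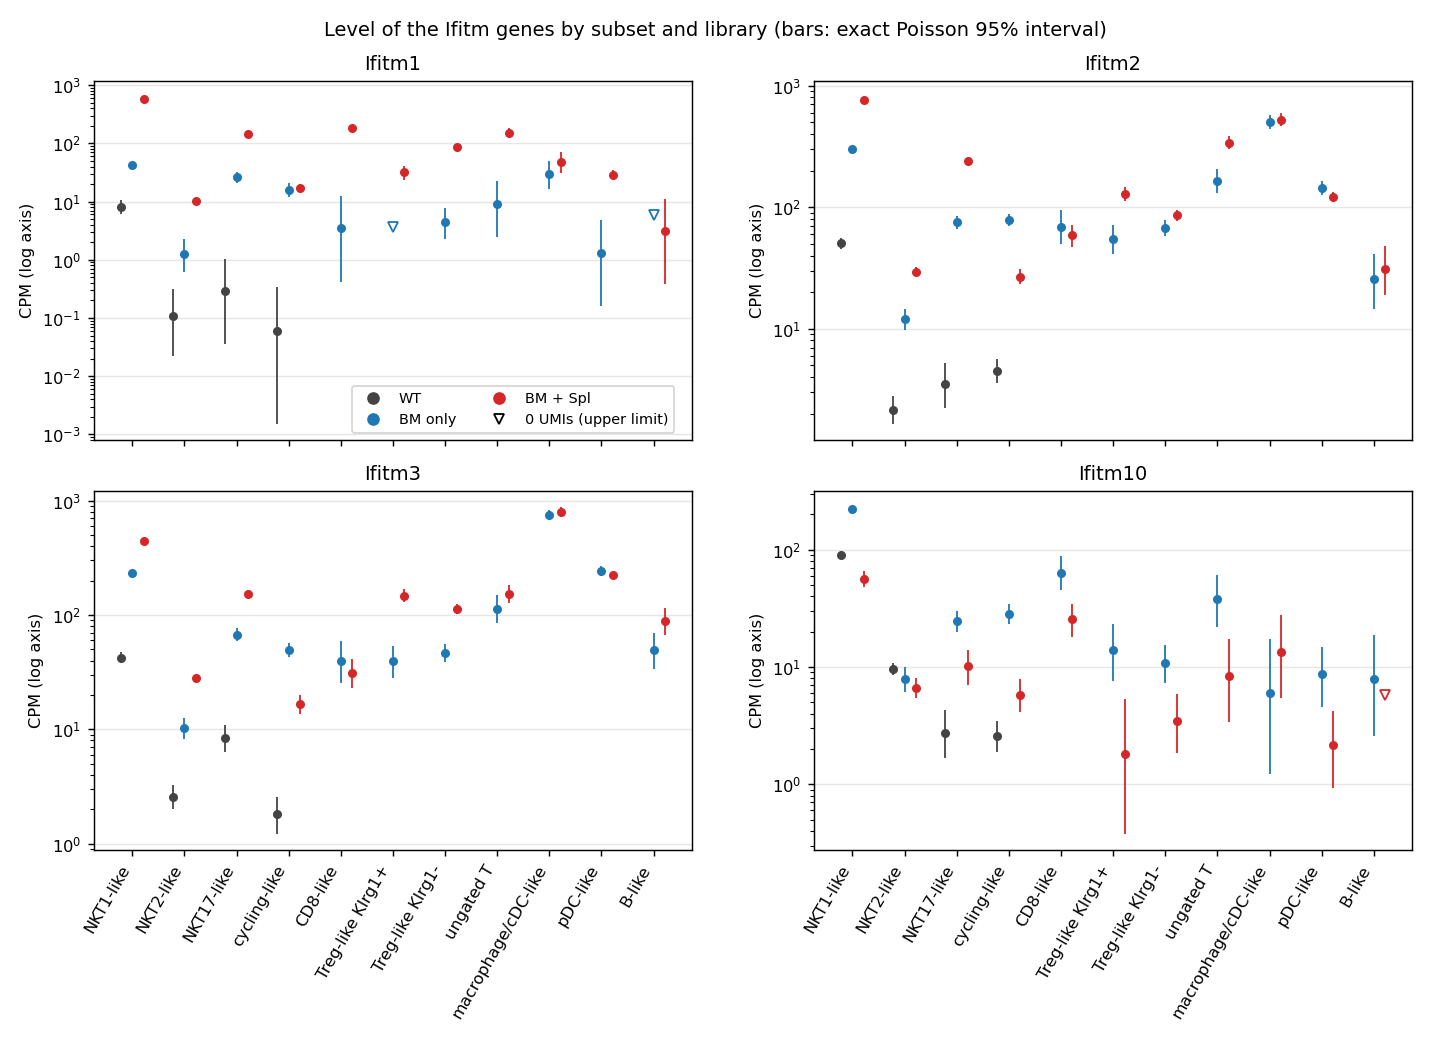
CPM of the 4 Ifitm genes by marker-gated subset in the WT, BM only and BM + Spl libraries, with exact Poisson 95% intervals as bars, on a log axis. Among T lineage subsets with a named gate, NKT1-like cells hold the highest level of each gene in each library, and the macrophage/cDC-like cells of the BMT libraries hold the highest Ifitm3.

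In NKT1-like cells 3 of the 4 genes were higher in BM + Spl and Ifitm10 was lower. Ifitm1 was counted at 8.19 CPM in WT, 42.9 in BM only (interval 39.2 to 46.9) and 589 in BM + Spl (562 to 617), a ratio of 13.7-fold (log2 3.78, 3.63 to 3.93). Ifitm2 was counted at 50.3, 303 and 768 CPM (log2 1.34, 1.26 to 1.42), and Ifitm3 at 42.4, 233 and 441 CPM (log2 0.92, 0.83 to 1.02). Ifitm10 went the other way, at 89.8 CPM in WT, 221 in BM only and 56.3 in BM + Spl, 3.93-fold lower than in BM only (log2 -1.97, -2.21 to -1.75). It was detected in 42.8%, 57.2% and 17.5% of NKT1-like cells. After thinning it was detected in 17.1%, 35.2% and 10.6%, so the share of positive cells followed the same order. The thinned cells were gated again on their thinned counts (868, 2358 and 575 NKT1-like cells), so they were not all the same cells. In these cells 9.92% of 8450 genes were past 1.5-fold higher in BM + Spl and 9.33% were past 1.5-fold lower, and all 4 members were past that fold.

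The cells that passed the NKT1-like gate were not alike in the BMT libraries. Cd3e, a component of the T cell receptor complex, was detected in 97.2% of NKT1-like cells in WT and BM only and in 96.0% in BM + Spl. Zbtb16, which encodes PLZF, the transcription factor of the iNKT lineage, was detected in 30.6%, 16.6% and 6.44%. Klrb1c, which encodes NK1.1 and was the basis of the NK1.1- sort at the protein level, was detected in 68.6%, 38.8% and 8.91%. Cd4 was detected in 17.4%, 10.9% and 55.8%, and iNKT V beta segments made up 91.1%, 92.5% and 38.3% of the calls. Smaller shares of the NKT1-like cells in BM + Spl than in BM only thus carried an iNKT V beta segment or Zbtb16, against the label of NKT cells. A change within iNKT cells and a change in which cells passed the gate cannot be told apart from the NKT1-like sums alone.

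In NKT2-like cells all 4 genes were low, and the ratios again differed by gene. Ifitm1 was counted at 0.108 CPM in WT, 1.26 in BM only and 10.1 in BM + Spl, where 20 of 2131 cells carried it (log2 ratio 3.003, 2.13 to 4.03). The level in BM only came from 11 UMIs in 3 cells, 9 of them in 1 cell, and with 1 more marker in every gate the ratio was 5.11. Ifitm2 stood at 2.16, 12 and 29.5 CPM (log2 1.30, 0.99 to 1.61) and Ifitm3 at 2.56, 10.2 and 28.1 CPM (log2 1.46, 1.13 to 1.81). Ifitm10 stood at 9.59, 7.89 and 6.64 CPM, and the interval of its log2 ratio (-0.25, -0.69 to 0.21) held 0. Past 1.5-fold, 1.53% of 9363 genes were higher and 1.51% were lower in BM + Spl. Thinned to 2000 UMIs per cell and gated again on the thinned counts, the Ifitm10 ratio was -0.88.

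Over all 11 subsets, the interval of the log2 ratio lay above 0 for Ifitm1 in 8 subsets and below 0 in none, and for Ifitm10 below 0 in 8 and above 0 in none. For Ifitm2 it lay above 0 in 6 and below 0 in 2, and for Ifitm3 above 0 in 6 and below 0 in 1. These intervals treat UMIs as independent, and Ifitm1 UMIs lay in few cells. By share of cells with an Ifitm1 UMI, the BMT intervals were apart in NKT1-like, NKT17-like and Klrg1-negative Foxp3-gated cells. They overlapped in NKT2-like, pDC-like, CD8-like (0.0193 to 4.18% and 2.30 to 7.225%) and Klrg1-positive Foxp3-gated cells and in T lineage cells that met no gate. By share of cells with an Ifitm10 UMI, the BMT intervals were apart in NKT1-like and cycling-like cells. They overlapped in the other subsets whose Ifitm10 ratio lay below 0, among them NKT17-like cells (5.24 to 9.47% and 3.20 to 7.15%). In Klrg1-positive Foxp3-gated cells that ratio rested on 14 and 3 UMIs. In NKT17-like cells Ifitm1 stood at 26.2 CPM in BM only and 146 in BM + Spl, Ifitm2 at 74.9 and 241, Ifitm3 at 67.4 and 152, and Ifitm10 at 24.5 and 10.1. Cycling-like cells, which carried at least 3 proliferation genes, differed in the other direction for Ifitm2 (78.9 and 26.8 CPM, log2 -1.56, -1.83 to -1.29) and Ifitm3 (49.6 and 16.5 CPM, log2 -1.59, -1.93 to -1.24). Ifitm1 stood at 15.9 and 17.1 CPM in them, with an interval that held 0 (log2 0.10, -0.36 to 0.58), and Ifitm10 was 28.6 and 5.79 CPM.

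Regulatory T cell-like (Treg-like) cells, gated on Foxp3, and CD8-like cells also held more Ifitm1 UMIs in BM + Spl. Treg-like cells with a Klrg1 UMI had no Ifitm1 UMI in 182 BM only cells, where the exact interval allows up to 2.01% of cells with a UMI. In BM + Spl they had 52 UMIs in 4 of 251 cells (1.59%), 42 of them in 1 cell. Treg-like cells without Klrg1 stood at 4.47 and 85.3 CPM. In CD8-like cells 2 UMIs were counted in BM only and 284 in BM + Spl (log2 5.71, 3.84 to 8.76), and 10 of 303 BM + Spl cells carried 5 or more each. Ifitm3 in Klrg1+ Treg-like cells stood at 39.7 and 148 CPM (log2 1.90, 1.41 to 2.42). Ifitm10 was lower in BM + Spl in CD8-like cells, at 64.0 and 25.5 CPM.

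The cells other than T cells ordered the members differently. Macrophage/cDC-like cells had the highest Ifitm3 of any subset, at 750 CPM in 57 BM only cells and 794 in 52 BM + Spl cells (log2 0.08, -0.12 to 0.29), and Ifitm2 stood at 503 and 525 CPM. Ifitm10 was represented by 3 and 7 UMIs in them. pDC-like cells held Ifitm3 at 242 and 222 CPM, and B-like cells at 49.4 and 89.0 CPM. Ifitm1 was not detected in the 82 B-like cells of BM only, where the exact interval allows up to 4.40% of cells with a UMI. In the 69 B-like cells of BM + Spl 2 Ifitm1 UMIs were counted. Ifitm10 was detected in 2.44% of B-like cells of BM only (0.30 to 8.53) and in none of BM + Spl (exact upper limit 5.21%). It was detected in 3.91% and 3.66% of NKT2-like cells (2.89 to 5.16 and 2.90 to 4.55). In pDC-like cells it was detected in 2.26% (0.74 to 5.20) and 1.15% (0.37 to 2.66), so in BM only these intervals overlapped those of NKT2-like cells and in BM + Spl that of pDC-like cells lay below. The median depth was 6303.5 and 8361 UMIs in B-like cells, 6501 and 7203 in pDC-like cells and 7002 and 7664 in NKT2-like cells. In BM + Spl the order of subsets by Ifitm2 began with NKT1-like cells (768 CPM), followed by macrophage/cDC-like cells (525) and T lineage cells that met no gate (340), with no overlap of neighbouring intervals. For Ifitm10 it began with NKT1-like cells (56.3 CPM) and CD8-like cells (25.5), below which all neighbouring intervals overlapped.

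**Figure D2:**
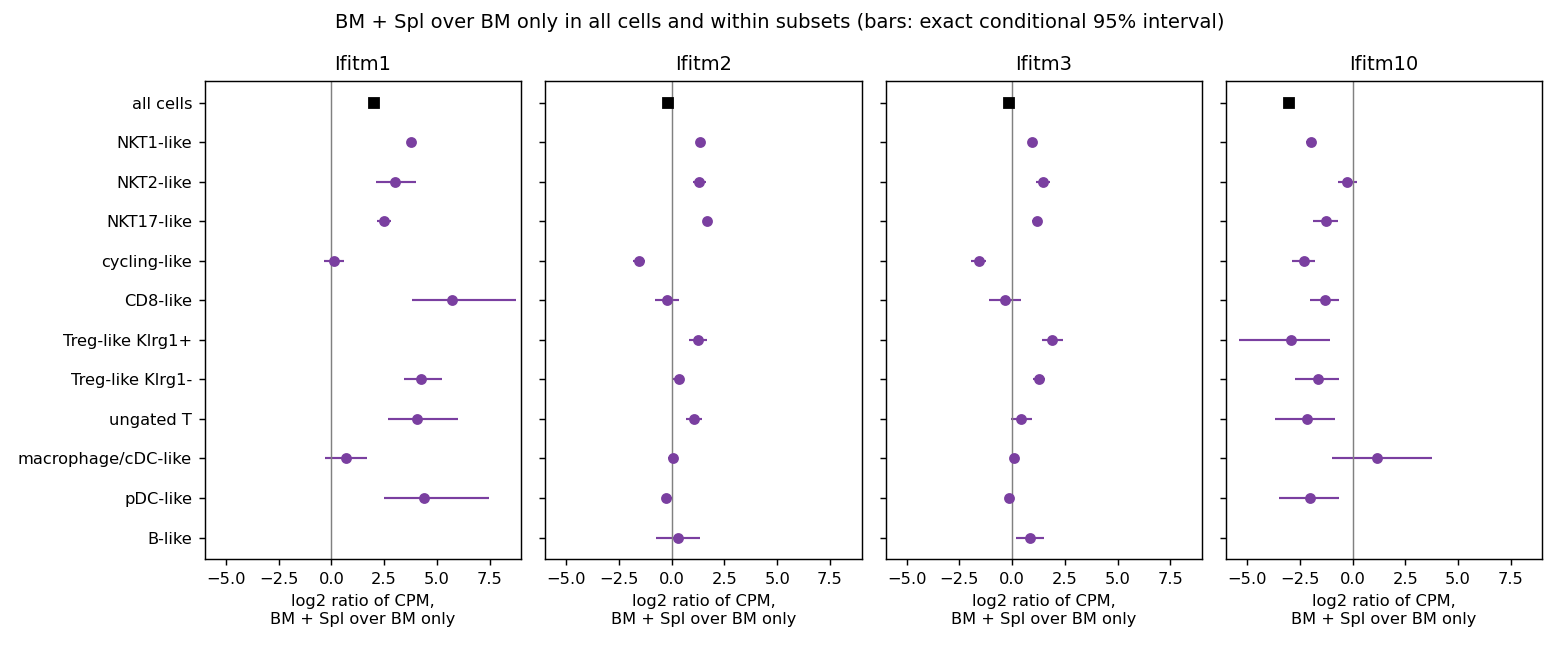
Log2 ratio of CPM, BM + Spl over BM only, for each Ifitm gene over all cells and within subsets, with exact conditional binomial 95% intervals. In NKT1-like cells the ratios are 3.78 for Ifitm1, 1.34 for Ifitm2, 0.92 for Ifitm3 and -1.97 for Ifitm10, against 2.04, -0.15, -0.17 and -3.03 over all cells.

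The mix of subsets moved the ratios over all cells. With the subset shares fixed at their mean over the BMT libraries, Ifitm1 stood at 14.5 CPM in BM only and 153 in BM + Spl (log2 3.40) and Ifitm10 at 56.7 and 16.4 CPM (log2 -1.79). Ifitm2 stood at 110 and 221 CPM (log2 1.01) and Ifitm3 at 96.6 and 156 CPM (log2 0.69), so both turned from slightly lower to higher in BM + Spl. The direction for Ifitm2 and Ifitm3 over all cells thus depended on the mix of subsets, and those for Ifitm1 and Ifitm10 kept their sign.

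Ifitm1 was carried by few cells at high UMI number. In BM + Spl, 153 of 5557 cells (2.75%) held 5 or more Ifitm1 UMIs and together 95.7% of all its UMIs, with up to 97 UMIs in 1 cell. In BM only, 49 of 5970 cells (0.821%) held 5 or more and 72.2% of its UMIs, with up to 40 in 1 cell, and in WT 1 cell did. Outside these cells 150 Ifitm1 UMIs were left in BM + Spl and 191 in BM only. Because Ifitm1 UMIs were clustered by cell, its Poisson intervals are narrower than cell-to-cell variation would give. The threshold of 5 UMIs was chosen after the values were seen.

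**Figure D3:**
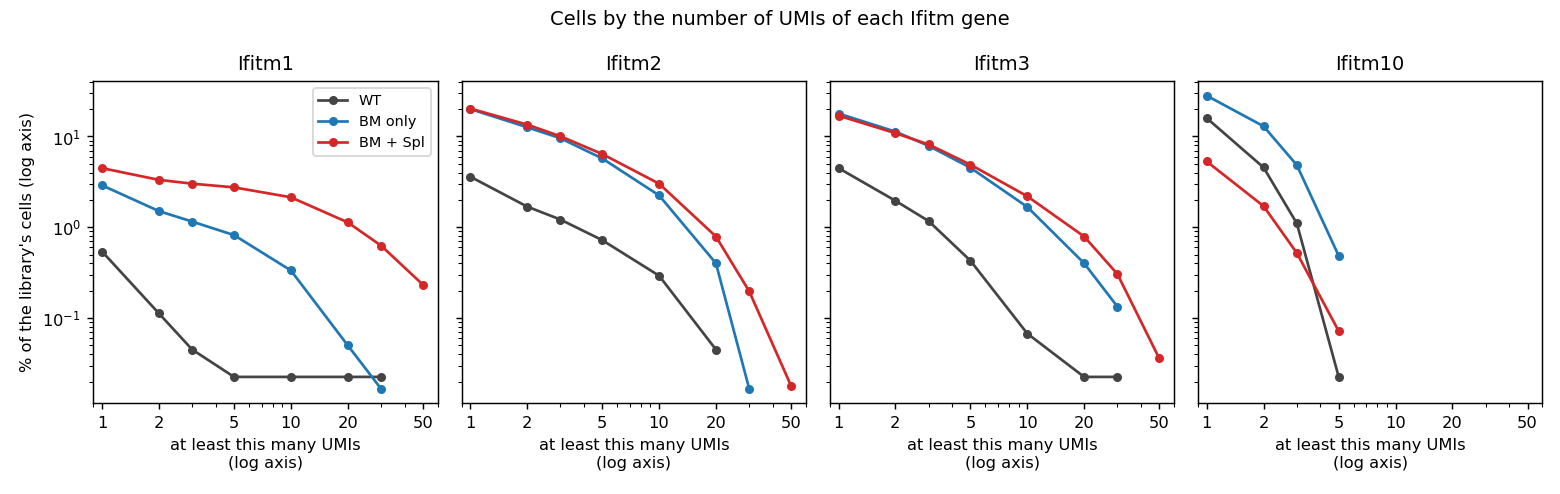
Percent of cells with at least a given number of UMIs of each Ifitm gene in the 3 libraries, on log axes. In BM + Spl 2.75% of cells hold 5 or more Ifitm1 UMIs and 0.234% hold 50 or more, whereas Ifitm10 does not exceed 8 UMIs per cell in any library.

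Ifitm2 and Ifitm3 were spread over more cells. Cells with 5 or more Ifitm2 UMIs made up 5.73% of BM only and 6.41% of BM + Spl cells and held 67.8% and 73.7% of its UMIs, and the most in 1 cell was 39 and 54. For Ifitm3 these cells made up 4.52% and 4.89% and held 64.5% and 72.6% of UMIs, with up to 43 and 88 in 1 cell. Ifitm10 was spread most thinly, with at most 8 UMIs in 1 cell, and cells with 5 or more held 5.46% of its UMIs in BM only and 4.82% in BM + Spl. In BM + Spl, Ifitm1 had the most UMIs per positive cell (14) and Ifitm10 the fewest (1.48). In BM only Ifitm1 (3.97) stood between Ifitm2 (4.12) and Ifitm3 (3.9), and in WT Ifitm2 was highest (3.26, against 2.67 for Ifitm1). Ifitm10 was lowest in these libraries too (1.71 and 1.37).

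The Ifitm1-high cells, those with 5 or more Ifitm1 UMIs, were mostly NKT1-like. They numbered 37 of 2560 NKT1-like cells in BM only (1.45%) and 82 of 606 in BM + Spl (13.5%), and in BM + Spl 22 more were NKT17-like, 10 CD8-like and 10 Treg-like without Klrg1. Those that met the gates of 2 lineages, as a doublet would, numbered 1 of 49 and 5 of 153. Over all subsets their median depth was 4347 and 4801 UMIs, and NKT1-like cells that were not Ifitm1-high had 4274 and 4270. Ifitm2 was detected in 87.8% and 96.7% of the Ifitm1-high cells and Ifitm3 in 61.2% and 80.4%. Ifitm10 was detected in 55.1% of them in BM only and 14.4% in BM + Spl. Of the Ifitm1-high cells of any subset with a V beta call, some used a segment outside the iNKT set. Their share was 6.45% of 31 in BM only (0.79 to 21.4) and 75% of 124 in BM + Spl (66.4 to 82.3). NKT1-like cells that were not Ifitm1-high used one in 7.52% and 59.8% (55.1 to 64.4), but these sets differ in their subsets. Among Ifitm1-high NKT1-like cells alone, 1 used another segment and 25 an iNKT segment in BM only. In BM + Spl 53 used another segment and 19 an iNKT segment.

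The genes with the highest ratio of Ifitm1-high over the remaining NKT1-like cells were partly shared. Candidates had at least 50 UMIs in the high cells and were found in at least 20% of them (422 genes in BM only, 1171 in BM + Spl). The filter used the high cells alone and only the highest ratios were listed, so genes lower in these cells could not appear. Lgals3 (galectin-3), S100a4 (a calcium-binding protein of motile cells) and Klf2 (a transcription factor of lymphocyte recirculation) were in the leading 10 in both libraries, an overlap that was not tested. Lgals3 stood at 476 against 131 CPM in BM only and 606 against 198 CPM in BM + Spl. Klf2 stood at 1010 against 610 CPM and 474 against 212 CPM. The others were Fcer1g, Ccl5, Tpr, Anxa2, Itgb7, Ppp1r14b and Srsf2 in BM only and Anxa1, Atf3, S100a6, Crip1, Ctla2a, Csf1 and Runx2 in BM + Spl. In BM + Spl the activating receptor gene Klrk1 (NKG2D) was detected in 81.7% of Ifitm1-high NKT1-like cells (71.6 to 89.4) and 40.8% of the others (36.6 to 45.2), and Cd4 in 73.2% and 53.1%. Of the NKT1 and iNKT markers in the same cells, Klrb1c was detected in 2.44% and 9.92% and Zbtb16 in 1.22% and 7.25%. The intervals overlapped for both. Tbx21 went the other way, at 42.7% (31.8 to 54.1) and 32.8% (28.8 to 37.0), also with overlapping intervals. The chemokine gene Xcl1 was detected in 26.8% (17.6 to 37.8) and 42.6% (38.3 to 46.9) but stood at 1083 against 649 CPM. In BM only Klrk1 was detected in 56.8% (39.5 to 72.9) and 48.4%, and Cd4 in 8.11% and 10.98%. Tbx21 was lower in the high cells there, at 27.0% (13.8 to 44.1) and 41.9% (39.9 to 43.8), with overlapping intervals. The natural killer cell gene Ncr1 was detected in 13.5% (4.54 to 28.8) and 2.66% (2.06 to 3.36) in BM only. In BM + Spl Ncr1 was detected in 1.22% and 1.72%, and Eomes, another such gene, in 0% and 1.53%, so neither followed Klrk1. This rule was set, and these markers were chosen, after Ifitm1 values had been seen, and the genes carry no test.

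The V beta segment split the NKT1-like cells by receptor, which the marker gates did not use. In BM only, 1981 NKT1-like cells used an iNKT V beta segment and 160 another, and in BM + Spl 197 and 318. In BM only Ifitm1 stood at 38.7 CPM in iNKT V beta cells and 16.4 in the others, and Ifitm2 at 313 and 221. By share of positive cells the BM only intervals overlapped, for Ifitm1 (4.08 to 6.05% and 0.69 to 6.28%) and Ifitm2 (28.8 to 32.9% and 18.5 to 32.45%). In BM + Spl the order by CPM was inverted, with Ifitm1 at 395 and 720 CPM and Ifitm2 at 469 and 1028 CPM. The intervals of the shares were apart there for both genes. Ifitm3 was 233 and 235 CPM in BM only and 291 and 512 in BM + Spl. Ifitm10 was lower in cells with other V beta segments in both, at 235 and 152 CPM in BM only and 89.1 and 36.6 in BM + Spl. Non-iNKT receptors thus went with higher Ifitm1, Ifitm2 and Ifitm3 in BM + Spl and with lower Ifitm10 in both libraries.

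**Figure D4:**
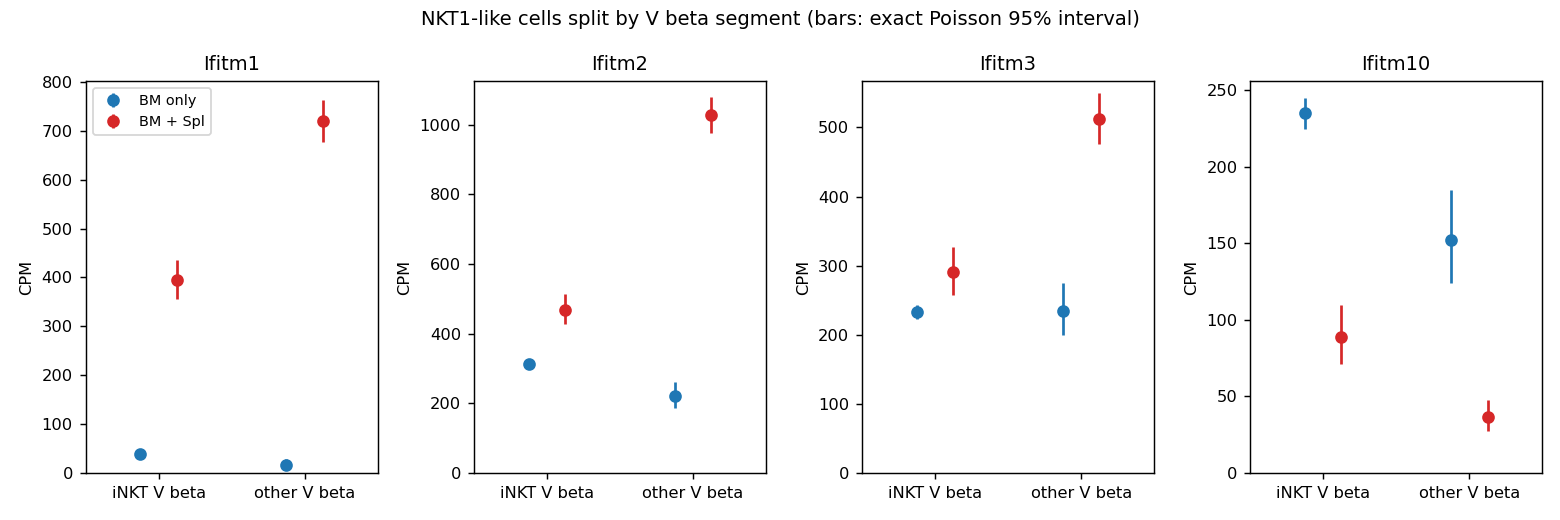
CPM of each Ifitm gene in NKT1-like cells split by V beta segment (6 segments used by iNKT cells, or another) in BM only and BM + Spl, with exact Poisson 95% intervals. Within iNKT V beta cells Ifitm1 is 38.7 in BM only and 395 in BM + Spl, and Ifitm10 is 235 and 89.1.

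Restricted to iNKT V beta cells, the NKT1-like ratios of BM + Spl over BM only were smaller for all 4 genes and kept their signs. They were log2 3.35 for Ifitm1 (3.13 to 3.56), 0.58 for Ifitm2 (0.44 to 0.73), 0.32 for Ifitm3 (0.13 to 0.50) and -1.40 for Ifitm10 (-1.73 to -1.09). In cells with other V beta segments they were 5.45, 2.22, 1.13 and -2.06. Ifitm1-high cells made up 1.26% of iNKT V beta NKT1-like cells in BM only and 9.65% in BM + Spl (interval 5.91 to 14.6), and 0.625% and 16.7% of those with other segments. The directions in NKT1-like cells were therefore present among cells with an iNKT receptor segment. A conventional T cell can use the same segments, and its share among them was not tested.

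NKT2-like and NKT17-like cells differed more by receptor for some members. In NKT2-like cells of BM + Spl, Ifitm2 stood at 13.1 CPM in iNKT V beta cells and 119 in the others, Ifitm3 at 19.1 and 76.96, and Ifitm1 at 1.29 and 46.4. In BM only Ifitm2 stood at 8.08 and 56.2 CPM and Ifitm3 at 8.08 and 39.5 CPM. In NKT17-like cells of BM only, 46 Ifitm1 UMIs lay in 0.984% of 305 iNKT V beta cells (23.0 CPM), 1 in 153 cells with other segments and 50 in 158 cells without a call (51.5 CPM). In BM + Spl the same groups held 24 UMIs in 171 cells, 363 in 233 cells (282 CPM) and 117 in 106 cells (144 CPM). Within iNKT V beta NKT17-like cells Ifitm1 was 23.0 and 17.7 CPM, and the interval of that ratio held 0 (log2 -0.38, -1.16 to 0.36), so its higher level in BM + Spl was not seen there in CPM. Its share of positive cells went the other way, at 0.984% (0.20 to 2.85) and 2.92% (0.96 to 6.69), with overlapping intervals. Both levels thus rested on few cells.

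The members were then set against the interferon response of each cell. Each T lineage cell was thinned to 2000 UMIs, and the UMIs of 7 interferon-induced genes (Ifit1, Ifit3, Rsad2, Isg15, Usp18, Oasl2 and Irf7) were summed, with cells at 0 called interferon-low and those at 5 or more interferon-high. In NKT1-like cells Ifitm3 was higher in interferon-high cells in all 3 libraries. It stood at 39.7 and 138 CPM in WT (log2 1.80, 0.90 to 2.62), at 209 and 687 in BM only (1.72, 1.40 to 2.02) and at 437 and 1179 in BM + Spl (1.43, 0.87 to 1.95), where 14 cells with 33 Ifitm3 UMIs were interferon-high. In cells between these groups, with 1 to 2 and 3 to 4 UMIs, Ifitm3 stood at 228 and 369 CPM in BM only. It did not rise steadily in BM + Spl (427 and 262 CPM) or in WT (49.6 and 21.3 CPM). Ifitm2 was lower in interferon-high cells of the BMT libraries, at 306 and 140 CPM in BM only (log2 -1.13, -1.83 to -0.51) and 922 and 286 in BM + Spl (-1.69, -2.91 to -0.71). In WT the interval for Ifitm2 held 0 (0.70, -0.49 to 1.72). In BM only Ifitm2 did not fall steadily, at 306, 336.5, 362.5 and 140 CPM in cells with 0, 1 to 2, 3 to 4 and 5 or more UMIs of the 7 genes. With interferon-high cells taken from 3 UMIs its log2 ratio was -0.27, with an interval that held 0 (-0.62 to 0.07).

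**Figure D5:**
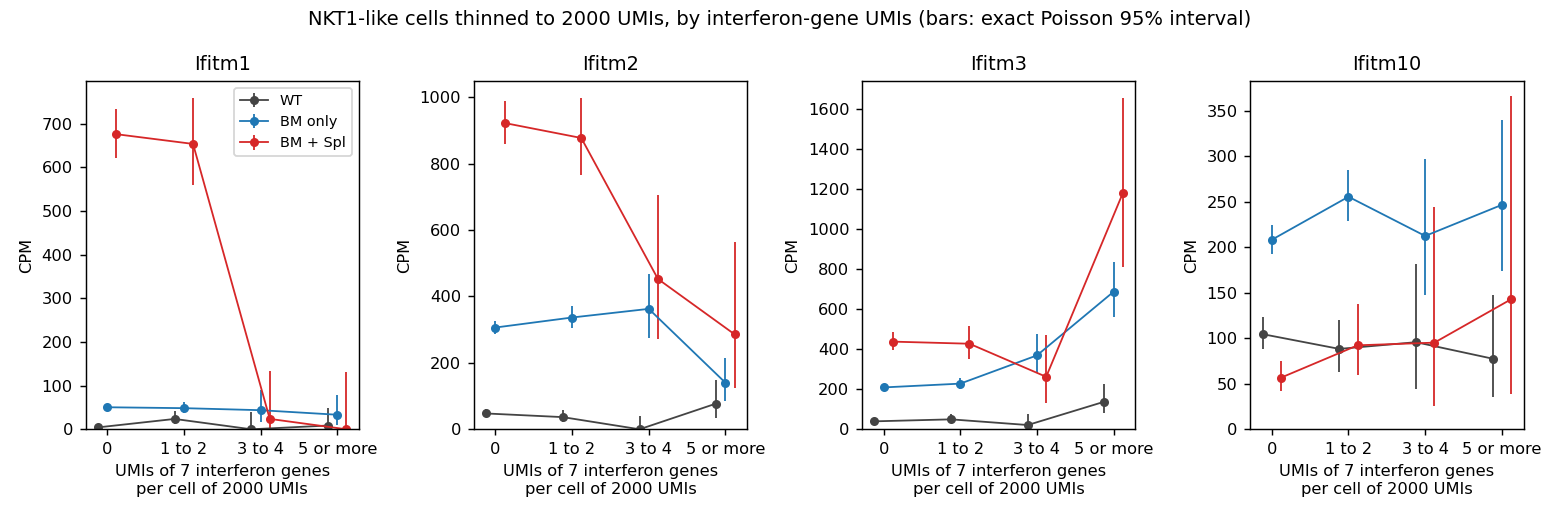
CPM of each Ifitm gene in NKT1-like cells by the summed UMIs of 7 interferon-induced genes after thinning to 2000 UMIs per cell, with exact Poisson 95% intervals, in each library. Ifitm3 is highest at 5 or more UMIs (138 in WT, 687 in BM only, 1179 in BM + Spl), and Ifitm2 in the BMT libraries is lowest there.

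For Ifitm1 and Ifitm10 no interval lay above 0 in thinned NKT1-like cells. Without thinning the log2 ratio lay above 0 for Ifitm1 in WT (3.25, 2.26 to 4.36), where 36 of the 58 UMIs lay in 1 cell, and for Ifitm10 in BM + Spl (1.49, 0.82 to 2.14). In BM + Spl, Ifitm1 stood at 676 CPM in interferon-low NKT1-like cells, and no UMI was counted in the 14 interferon-high cells, whose upper limit was 132 CPM. That limit treats UMIs as independent, whereas Ifitm1 UMIs lay in few cells, so 14 cells without one cannot show an absence. Over all T lineage cells of BM + Spl, Ifitm1 stood at 167 CPM in interferon-low and 122 in interferon-high cells (log2 -0.45, -0.93 to -0.01). In BM only the log2 ratio for Ifitm1 was -0.60 (-2.24 to 0.65) and that for Ifitm10 was 0.24 (-0.28 to 0.72), and both intervals held 0. In NKT2-like cells Ifitm3 was again higher in interferon-high cells, at 17.4 and 119 CPM in BM only (log2 2.77, 1.56 to 3.87) and 48.2 and 106 in BM + Spl (1.14, 0.38 to 1.84). Over all T lineage cells the ratios for Ifitm3 were 2.42 in WT, 1.89 in BM only and 0.93 in BM + Spl, and those for Ifitm2 were 1.31, -1.004 and -1.83. For Ifitm10 the T lineage ratio lay above 0 in BM only (0.66, 0.22 to 1.08) but reversed to -0.54 without thinning. Its intervals held 0 in WT (0.66, -0.28 to 1.47) and BM + Spl (-0.07, -1.73 to 1.21). In BM + Spl the Ifitm3 ratio depended on the settings: with interferon-high cells taken from 3 UMIs it was -0.007, and without thinning -0.87 over T lineage cells and 0.064 in NKT1-like cells, where its interval held 0 (-0.20 to 0.32). NKT1-like cells made up 14% of interferon-low and 7.95% of interferon-high T lineage cells in that library.

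The genes of the interferon pathway were counted in the same way. Of 12 receptor and signalling genes, none was past 1.5-fold higher in BM + Spl over all cells and 1 was past 1.5-fold lower (median log2 ratio -0.03, against 0.01 over all 11714 genes). That gene was Ifngr1, a chain of the interferon gamma receptor, at 278 CPM in BM only and 150.1 in BM + Spl (log2 -0.89). Next came Jak1, a kinase bound to both receptors (-0.36), and the transcription factor Irf1 (-0.35). Ifngr2, the other chain of the interferon gamma receptor, stood at 0.31 and the type I receptor chain Ifnar2 at 0.19. In NKT1-like cells 1 of 11 receptor and signalling genes was past 1.5-fold lower, beside 9.33% of all genes, and 0 were past 1.5-fold higher. That 1 was Irf1 (-0.73), and Ifngr1 stood at -0.45 there. Of 39 interferon-induced genes in the files, 6 were past 1.5-fold higher and none past 1.5-fold lower (median log2 0.22), beside 5.98% and 6.58% of all genes. Over all cells the largest differences were those of Ifi27l2a (log2 1.04), Bst2, which encodes tetherin (0.96), and Oasl2 (0.93). At the low end were Ifit3 (-0.48), Slfn8 (-0.42) and Ifit1bl1 (-0.37). In NKT1-like cells 3 of 37 were past 1.5-fold in each direction, beside 9.92% higher and 9.33% lower of all genes, and the median was -0.02. The 3 that were higher were Ifi27l2a (log2 1.96), Slfn5 (1.87) and Dhx58 (0.66), and the 3 that were lower were Oasl1 (-1.13), Ifit3 (-0.76) and Oas3 (-0.67). Bst2 (0.51) and Oasl2 (0.47) were within 1.5-fold in NKT1-like cells.

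Neighbouring genes on chromosome 7 were counted beside the 5.98% of all genes past 1.5-fold higher and 6.58% past 1.5-fold lower in BM + Spl. Most stayed within that fold, as did most genes of the libraries. Of the 14 annotated genes within 100 kb of Ifitm1 to Ifitm3, 8 had at least 100 UMIs in the BMT libraries, and 1, B4galnt4, a glycosyltransferase gene, was past 1.5-fold lower in BM + Spl (log2 -1.39), with a median of -0.14. Psmd13, a proteasome subunit gene, stood at log2 0.18 and Ric8a at -0.31. Of 10 genes within 100 kb of Ifitm10, 3 had at least 100 UMIs. Of these Ctsd, the lysosomal protease cathepsin D, was past 1.5-fold lower (-0.77), Lsp1 stood at 0.05 and Tnni2 at 0.24. In NKT1-like cells Pkp3, a neighbour of Ifitm1 to Ifitm3, was past 1.5-fold higher (0.65), and B4galnt4 (-0.88) and Ctsd (-0.68) were past 1.5-fold lower. Of the remaining family genes, Ifitm5, known from bone, had 1 UMI in each BMT library, Ifitm6 had 30 and 51 UMIs, and Ifitm7 had none.

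Likeness was measured as the Pearson correlation of log2(CPM + 1) over 26 combinations of library and subset with at least 50 cells, among 9853 genes that gate no cell. These points share libraries and depth, so the values are descriptions. Ifitm2 and Ifitm3 were most like each other (r = 0.94), followed for both by Card19 (0.90 and 0.88). Ifitm1 was most like Dnajc15, a mitochondrial co-chaperone gene (0.81), and then Ifitm2 (0.75). Ifitm10 was most like Zfp683 (0.91), which encodes Hobit, a transcription factor of tissue-resident lymphocytes, and Kcnj8 (0.88), a potassium channel subunit gene, and its r with Ifitm1, Ifitm2 and Ifitm3 was 0.26, 0.36 and 0.17. Over the 22 combinations of the BMT libraries alone, r was 0.90 for Ifitm2 with Ifitm3, 0.83 and 0.76 for these with Card19, 0.79 for Ifitm1 with Dnajc15, 0.65 for Ifitm1 with Ifitm2, and 0.93 and 0.89 for Ifitm10 with Zfp683 and Kcnj8. The remaining genes of the leading 5 were Tnfsf8, Mrpl58 and Car2 for Ifitm1, Stard3nl, Bhlhe40 and Spryd7 for Ifitm2, Map3k8, Cebpb and Cdkn1a for Ifitm3, and Efhd2, Klra5 and Usp48 for Ifitm10.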

How the data were processed

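Single cell RNA sequencing counts (10x Genomics) were deposited per library. The authors made them with Cell Ranger on mm10 (the matrix headers name 3.0.2 for WT and 7.0.0 for BM only and BM + Spl) and, per the labels, used Seurat 4.0.2 downstream, which did not enter the deposited counts. All 3 samples were used, 1 library of pooled mice per condition, and no test between conditions was possible. Cells were kept where more than 200 but fewer than 6000 genes were detected and mitochondrial genes made up less than 10% of UMIs, with 34799890 to 58794317 UMIs per library. UMIs were summed per subset and divided by the total over 30406 shared genes (CPM, per 1000000). Intervals are exact (Poisson, conditional binomial or Clopper-Pearson at 95%) and cover counting error only. Where no cell carried a UMI, the upper end of the exact interval is given. Gates were applied per cell in a fixed order (B-like, pDC-like, macrophage/cDC-like, Treg-like, NKT17-like, CD8-like, cycling-like, NKT1-like, NKT2-like), no doublet caller was run, and doublets were kept except in an alternative without the 6% deepest cells and those meeting the gates of 2 lineages. A V beta call required at least 80% of V beta UMIs on 1 segment, with Trbv12-2 and Trbv13-2 counted as 1. The named genes are the 4 members, family genes and neighbours, the 3 highest and 3 lowest ratios of each pathway list, and the 5 most correlated genes per member, and 1 gene that this rule names is not reported here. The genes that led in Ifitm1-high cells and the markers named between cells (Zbtb16, Tbx21, Klrb1c, Cd4, Klrk1, Xcl1, Ncr1, Eomes and Cd3e) fall outside it. So do the genes read for free RNA (Lyz2, Cd79a and Cd74) and the interferon-induced genes named in NKT1-like cells. All of these were chosen after their values were seen. Cd3d, Cd3g, Cd8a, Gzmc, Csf2 and Itga1 were also compared in Ifitm1-high cells and are not given. Members, gates and gene lists were chosen with earlier results of these data known. The alternatives were no cell filter, another scaling total, equal weight per cell, fixed subset shares, 1 more marker, iNKT V beta cells only, thinning to 2000 UMIs, and, added after seeing the data, removal of shared barcodes. In the thinning alternative the gates were applied to the thinned counts, whereas the interferon comparison kept the gates of the full counts. Scripts were tested on simulated counts. Python 3.11.15, numpy 2.4.6, scipy 1.17.1, pandas 2.3.3 and matplotlib 3.10.9 were used.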

Additional observations from a re-analysis of the deposited data

Results flagged for a closer look

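Some ratios of BM + Spl over BM only went against the sign of the same gene in other subsets or cells, with intervals on opposite sides of 0. None of these differences was tested, because each condition had 1 library. For Ifitm2 the log2 ratio was 1.69 in NKT17-like cells, -1.56 in cycling-like cells and -0.25 in pDC-like cells. For Ifitm3 it was 1.90 in Klrg1+ Treg-like cells and -1.59 in cycling-like cells. The cycling-like cells were fewer in BM only (273 of 5970) than in BM + Spl (458 of 5557), and their V beta segments and subset of origin were not compared.

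The log2 ratio of cells with other V beta segments over those with iNKT V beta segments changed sign between the libraries for Ifitm1 and Ifitm2. For Ifitm1 in NKT1-like cells it was -1.24 in BM only and 0.87 in BM + Spl, and for Ifitm2 it was -0.50 and 1.13. For Ifitm1 in NKT17-like cells it was -4.09 in BM only, where 1 UMI was counted in the 153 cells with other segments, and 3.997 in BM + Spl. The NKT1-like groups with other segments held 160 cells in BM only and 318 in BM + Spl. In that of BM only, Ifitm1 was represented by 11 UMIs in 2.5% of cells, and the interval of that share overlapped that of iNKT V beta cells. For Ifitm2 in BM only the intervals of the shares also overlapped.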

How the results depend on the processing

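No paired analysis was possible because each condition has 1 library. Of 217 alternative values, 141 stayed within the counting interval of the reported value, 67 moved and 9 reversed, and the cause was not tested. Over all cells, the log2 ratio of BM + Spl over BM only for Ifitm1 was 2.27 with cells weighted equally, 3.40 with subset shares fixed and 2.30 with thinning to 2000 UMIs, and for Ifitm10 it was -1.79 with shares fixed. For Ifitm2 it was 0.068 with equal weights, 1.01 with shares fixed and 0.09 with thinning, all reversed, and -0.21 without the deepest and 2-lineage cells. For Ifitm3 it was -0.044, 0.69 (reversed), -0.078 and -0.41 in the same order. In NKT1-like cells, restriction to iNKT V beta gave 3.35 (Ifitm1), 0.58 (Ifitm2), 0.32 (Ifitm3) and -1.40 (Ifitm10). Thinning gave 1.16, 0.62 and -1.66 for Ifitm2, Ifitm3 and Ifitm10, and Ifitm2 was 1.198 with 1 more marker and 1.44 with equal weights. In NKT2-like cells Ifitm1 was 5.11 with 1 more marker, Ifitm10 -0.88 with thinning and Ifitm2 0.70 in iNKT V beta cells. Ifitm1 in NKT17-like cells reversed to -0.38 in iNKT V beta cells and was 0.96 with 1 more marker and 4.62 with thinning, and Ifitm10 there was -3.195 with 1 more marker.

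For interferon-high over interferon-low T lineage cells, a threshold of 3 UMIs gave -1.58 for Ifitm1 in BM + Spl, -0.35 and 0.12 for Ifitm2 in BM only and WT, and 1.43, 1.58 and -0.007 (reversed) for Ifitm3 in BM only, WT and BM + Spl. Without thinning, Ifitm1 in BM + Spl was -2.79, and Ifitm10 was -0.54 in BM only (reversed from 0.66) and -0.49 in WT. Ifitm2 was -1.38 in WT (reversed from 1.31), and Ifitm3 was 0.88, 0.92 and -0.87 (reversed from 0.93) in BM only, WT and BM + Spl. In NKT1-like cells Ifitm3 in BM + Spl was 0.52 from 3 UMIs and 0.064 without thinning, and 1.32 in BM only from 3 UMIs. Ifitm2 was -0.27 from 3 UMIs (interval held 0) and -0.26 without thinning in BM only, and -0.71 without thinning in WT. Without thinning, cells at 0 UMIs of the interferon genes are the shallower ones by construction. Depth limits most the subsets with under 60 cells and the 14 interferon-high NKT1-like cells of BM + Spl.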

Other observations

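Each of the clustered genes was detected in a larger share of cells with another of them than of cells without it. For Ifitm10 this differed by library and by set of cells. In NKT1-like cells of BM + Spl, Ifitm1 was detected in 35.3% of cells with Ifitm2 (30.1 to 40.8) and 4.20% of those without, and Ifitm3 in 67.2% and 16.8%. Ifitm10 was detected in 12.5% of cells with Ifitm2 (9.08 to 16.6) and 23.1% of those without (18.3 to 28.4). In NKT1-like cells of BM only, Ifitm10 was detected in 62.3% of cells with Ifitm2 (58.7 to 65.7) and 55.0% of those without (52.6 to 57.3), so the order was inverted between the libraries. Over all cells Ifitm10 was more frequent with Ifitm2 in each library. It was detected in 23.1% and 15.65% in WT, 46.4% and 23.55% in BM only and 7.10% and 4.85% in BM + Spl. These shares were not thinned, and cells with a given gene can be deeper than those without.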
